A study of Homo sapiens with 12 samples.

Results

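The replication-dependent histone genes of human cells are the protein-coding genes whose products package newly made DNA: linker histones H1-1 to H1-6 and the numbered H2AC, H2BC, H3C and H4C genes for the core histones. All protein-coding genes with such a symbol were taken from the deposited table, which gave 66 members among 60675 genes: 6 of class H1, 16 of H2A, 17 of H2B, 13 of H3 and 14 of H4. The rule itself uses no measured value. They were followed in MCF10A cells, a human breast epithelial line that is immortalized but does not form tumours, in 12 libraries of total RNA that formed 6 groups of 2. The groups were IL1R1-KO RT, IL1RAP-KO RT and WT RT, each taken after a single dose of 20 Gy (RT, ionizing radiation), and untreated IL1R1-KO, IL1RAP-KO and WT cells. Interleukin-1 binds IL1R1, and IL1RAP is the accessory chain that completes the receptor. KO cells had been made with a lentiviral CRISPR vector and were kept as pools, not clones. The time between RT and collection of RNA is not given in the sources used here.

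Levels are TPM, a share of all transcripts that takes gene length into account, divided by 1 factor for each library (scaled TPM) so that the typical gene keeps its level in all libraries. In such bulk samples fewer cells making a histone mRNA and less of it in each cell cannot be told apart. A member was tested where its TPM was at least 1 in at least 2 libraries, which 31 of the 66 members met, together with 15303 of all genes. Log2 fold changes are on the scale of log2(scaled TPM + 1), which understates changes of low genes, and calls needed both a change over 2-fold and an adjusted p below 0.05 (limma, Benjamini-Hochberg over all 15303 genes). The libraries of a group are described as biological repeats, but nothing says that they came from separate cultures, so p-values measure the spread between 2 libraries a group, which may be technical. Comparisons between KO RT and WT RT share the WT RT libraries, as both interactions share all WT libraries.

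Labels and cells were checked once. IL1R1 mRNA was not called lower in libraries labelled IL1R1-KO: 8.34 and 7.38 scaled TPM in IL1R1-KO RT against 7.38 and 6.07 in WT RT, and 10.99 and 7.79 in IL1R1-KO against 10.6 and 9.44 in WT libraries. IL1RAP was lower in IL1RAP-KO cells (4.39 and 4.96 scaled TPM against 17.96 and 20.7 in WT, log2 -1.84, adjusted p = 0.0133), and in IL1RAP-KO RT it was at 3.05 and 5.80 against 8.33 and 8.79 in WT RT. The untreated call was lost without any 1 of its 4 libraries (adjusted p of 0.101 to 0.197). Since the files hold no protein values, loss of IL1R1 was not checked here, and the direction of each difference of the libraries labelled IL1R1-KO rests on their label. All 6 basal mammary markers were present, with sums of 1709 to 2887 scaled TPM in RT and 3484 to 4421 in untreated libraries. The fibroblast markers, of which 2 of 5 passed the filter, summed to 42.8 to 90.9 in RT and 17.8 to 22.9 in untreated libraries, and DCN among them was called higher in all 3 genotypes. Endothelial markers (2 of 4) summed to 6.55 to 9.83 and 2.96 to 4.88, and leukocyte markers (1 of 5) to 1.98 to 7.78 and 2.86 to 3.98. Their part in the results was not tested.

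As background, most of these genes are transcribed in S phase under the factors HINFP and NPAT, have no introns, and give an mRNA that ends in a short stem-loop instead of a poly(A) tail. Stem-loop binding protein (SLBP) holds this hairpin through processing and translation, and when DNA synthesis stops the mRNA is tailed with uridine and degraded within minutes. A subset can also give a longer, polyadenylated mRNA when the stem-loop is passed over and a poly(A) signal further on is used, a form known from cells that have left the cycle. Replacement variants such as H3-3A and H2AZ1 lie elsewhere, have poly(A) tails and are made throughout the cycle.

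Of the 66 members, 64 were found by gene ID in GENCODE v44 (GRCh38, the build of the files), 55 on chromosome 6 and 9 on chromosome 1. All 64, the 31 tested ones included, have a stem-loop of the histone kind within 300 bases after the stop codon, and 36 share the same 16 letters. The stem-loops of 6 members that carry the results are shown 5′ to 3′ with the stem-loop in capitals (a stem of 6 bases, a loop of 4, the stem again), from GRCh38 on the strand of the gene, all within the 3′ end of the mRNA.
H4C8 (chr6:26285126-26285151): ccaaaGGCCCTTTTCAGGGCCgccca
H1-2 (chr6:26055739-26055764): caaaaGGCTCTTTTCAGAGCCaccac
H2AC6 (chr6:26124664-26124689): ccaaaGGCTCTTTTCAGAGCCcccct
H2BC5 (chr6:26158582-26158607): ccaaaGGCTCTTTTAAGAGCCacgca
H2BC21 (chr1:149886183-149886208): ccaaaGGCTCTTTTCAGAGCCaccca
H2AC20 (chr1:149887386-149887411): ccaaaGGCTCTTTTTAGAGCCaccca
The first 5 of these genes were higher after RT in every genotype and H2AC20 was lower in every genotype, so the hairpin was present on both sides.

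Genes for H2A and H2B often lie head to head and share 1 promoter region. Among the 59 members matched to a RefSeq start site, 11 pairs have divergent starts within 1000 bases of each other. Of these, 10 are an H2A and an H2B gene, and in 5 pairs both genes were tested. Pairs with an unmatched member were missed, such as H2BC12 (minus strand) and H2AC12 (plus strand), with GENCODE starts at chr6:27146855 and chr6:27147106. Shown are the whole stretches between the start sites of the pair that moved apart and of a pair that rose together, and the 120 bases before the start of H4C8, the member with the largest change (GRCh38). Capitals mark ATTTGCAT, TATAAA or CCAAT on either strand: the octamer bound by POU factors, the TATA box and the CCAAT box.
H2BC21 (to the left, minus strand) and H2AC20 (to the right, plus strand), chr1:149886683-149886917: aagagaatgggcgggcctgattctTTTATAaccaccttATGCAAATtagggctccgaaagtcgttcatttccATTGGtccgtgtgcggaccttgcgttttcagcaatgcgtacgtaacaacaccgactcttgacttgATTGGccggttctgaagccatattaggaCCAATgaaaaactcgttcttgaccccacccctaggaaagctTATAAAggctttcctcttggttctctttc
H2BC4 (to the left, minus strand) and H2AC6 (to the right, plus strand), chr6:26123927-26124171: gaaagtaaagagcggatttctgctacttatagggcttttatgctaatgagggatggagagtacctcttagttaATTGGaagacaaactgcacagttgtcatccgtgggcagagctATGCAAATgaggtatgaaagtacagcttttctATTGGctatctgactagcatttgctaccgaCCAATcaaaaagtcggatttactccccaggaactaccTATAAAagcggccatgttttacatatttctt
H4C8 (minus strand), chr6:26285535-26285654: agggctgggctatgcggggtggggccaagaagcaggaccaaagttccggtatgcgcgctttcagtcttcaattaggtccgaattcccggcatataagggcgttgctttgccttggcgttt
The region of H2BC21 and H2AC20 holds 1 octamer, 2 TATA boxes and 3 CCAAT boxes in 235 bases, and that of H2BC4 and H2AC6 1, 1 and 3 in 245 bases, while the window before H4C8, in which GENCODE places its start, holds none of the 3. RefSeq promoters of 300 bases (250 before the start and 50 after, build GRCh38.p14) were matched by symbol for 59 members, with the start nearest that of GENCODE where there were several. Among them 42.4% hold the octamer, 67.8% TATAAA and 84.7% CCAAT, against 1.8%, 11.5% and 34.6% of all 35116 promoters in the same table. The octamer was a feature of the H2A (84.6%) and H2B (82.4%) promoters and stood in none of the H1, H3 or H4 promoters. It stood in 7 of the 15 promoters of members called higher after RT and in 8 of 15 of the other tested members, and TATAAA in 11 of 15 on both sides. Promoters of head-to-head partners overlap, so the same octamer can be counted for both genes. For H2BC21 and H2AC20 it was counted on both sides of this comparison. H2BC8 and H2AC11 were also among those called higher, and their partners H2AC8 and H2BC11 among the others, each with an octamer. The near-equal counts therefore follow in part from this overlap.

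Of the 66 members, 12 were listed at 0 in every library (H2AC1, H2AC18, H2AC19, H2BC1, H2BC14, H3C1, H3C14, H3C15, H4C6, H4C7, H4C13 and H4C15). H3C14 and H3C15 have the same coding sequence, as do H4C15 and H4C14, and H2AC18 and H2AC19 were not found in GENCODE v44. How reads that match several places were treated is not given, so a value of 0 does not show that such a copy is silent. A further 23 were above 0 somewhere but did not reach the filter, with no value over 1.39 scaled TPM. Of those 23, 14 had a higher mean in the untreated and 9 in the RT libraries. The following 8 were listed at 0 in all 6 RT libraries: H2AC4, H2AC21, H2BC3, H2BC10, H3C2, H3C7, H4C1 and H4C11. H1-6 and H3C11 were at 0 in all 6 untreated libraries. The filter passes a low gene through the groups in which it is high, so the 31 tested members are not a sample of all 66. Among members called below, H4C4 reached 1 TPM in RT libraries alone and H2AC20 in untreated ones alone. H2BC8 reached it in only 1 untreated library (1.1 TPM). The calls of these genes are counted below but are not independent of the filter.

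A few members carried most of the signal. In untreated cells, H2BC12 alone made up 36.9 to 41.6% of the summed level of the 66 members, followed by H2AC6, and the 5 highest members together made up 75.7 to 79.1%. Only 4 members were at 10 scaled TPM or more in all untreated libraries: H2BC12, H2AC6, H1-2 and H2BC5. After RT the 5 highest members held 81.6 to 83.6%, H2AC6 was the highest in 5 of 6 libraries, and the share of H2BC12 was 15.2 to 31.0%.

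The summed level of all members was 849.3 and 853.9 scaled TPM in IL1R1-KO RT libraries against 182.2 and 164.9 in IL1R1-KO libraries. It was 657.1 and 753.1 in IL1RAP-KO RT against 164.0 and 151.8 in IL1RAP-KO libraries, and 414.1 and 426.8 in WT RT against 127.9 and 133.7 in WT libraries. RT libraries lay above the untreated ones of the same genotype without overlap, with ratios of the group means of 4.91, 4.46 and 3.21, and both KO RT groups lay above WT RT. Mitochondrially encoded transcripts of any kind made up 36.9 to 57.0% of the TPM of RT libraries and 18.3 to 21.1% of that of untreated ones. The highest share was in 1 of the IL1RAP-KO RT libraries. The part of these transcripts in the summed levels was not tested beyond the scalings given in the closing section. All classes moved the same way: the ratio of RT to untreated means was 5.72, 5.54 and 2.90 for H1 in IL1R1-KO, IL1RAP-KO and WT cells, 5.98, 5.54 and 4.07 for H2A, 3.97, 3.57 and 2.94 for H2B, and 3.63, 2.56 and 2.11 for H3. For H4 it was 13.1, 13.2 and 4.67. The H4 sum was 70.3 ± 2.8 scaled TPM in IL1R1-KO RT, 62.4 ± 10.3 in IL1RAP-KO RT and 20.7 ± 0.3 in WT RT libraries, against 5.35 ± 1.47, 4.74 ± 0.13 and 4.44 ± 0.59 in the untreated groups of the same order (SD, n = 2 each).

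**Figure D1:**
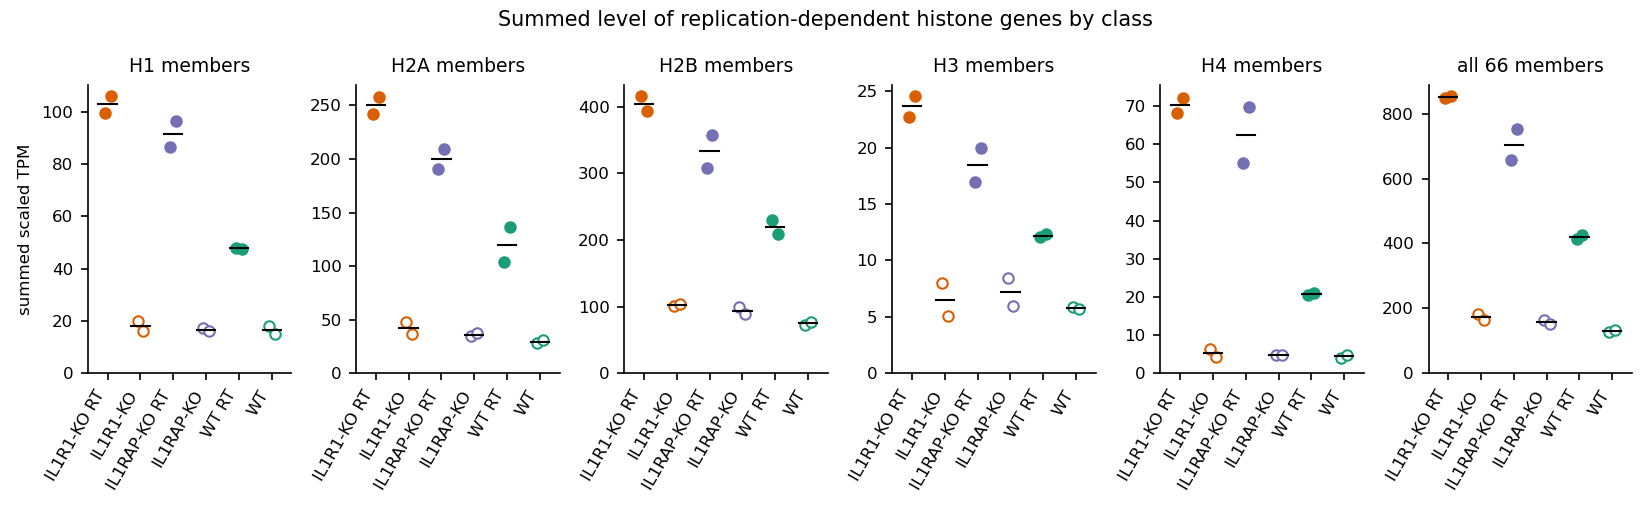
Summed scaled TPM of the members of each histone class and of all 66 members. Each point is 1 library (filled, RT; open, untreated), bars are means of 2 libraries, and every axis starts at 0. In each panel the RT libraries lie above the untreated libraries of the same genotype, and the H4 panel has the widest gap, with 68.3 and 72.3 in IL1R1-KO RT against 6.39 and 4.31 in IL1R1-KO libraries.

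After RT, 15 of the 31 tested members were called higher in IL1R1-KO cells, 12 in IL1RAP-KO cells and 10 in WT cells, and 1, 2 and 1 were called lower. Over all genes tested, 8.16%, 8.21% and 7.05% were called higher in the same order of genotypes and 8.16%, 9.18% and 6.16% lower. Lack of overlap between 2 and 2 libraries was common: 5838, 5500 and 5604 of all 15303 genes lay above the untreated libraries, and 5755, 5606 and 5747 below. Of the 31 members, 21, 21 and 17 lay above and 2, 3 and 4 below. Median log2 fold changes of the tested members were 0.99, 0.97 and 0.72, against medians of 0.01, 0.00 and 0.00 over all genes. With unscaled TPM the calls over all genes split 1345 higher to 1221 lower, 733 to 2532 and 718 to 1652, and those of the members 16 to 1, 12 to 2 and 9 to 1. Called higher in all 3 genotypes were 9 members: H1-2, H2AC6, H2BC5, H2BC8, H2BC18, H2BC21, H3C6, H3C10 and H4C8. A further 6 were called higher in 1 or 2 genotypes: H2AC11, H2AC13, H2BC4, H2BC12, H2BC15 and H4C4. Those called lower were H2AC20 and H3C4, and 14 members were called in no genotype.

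**Figure D2:**
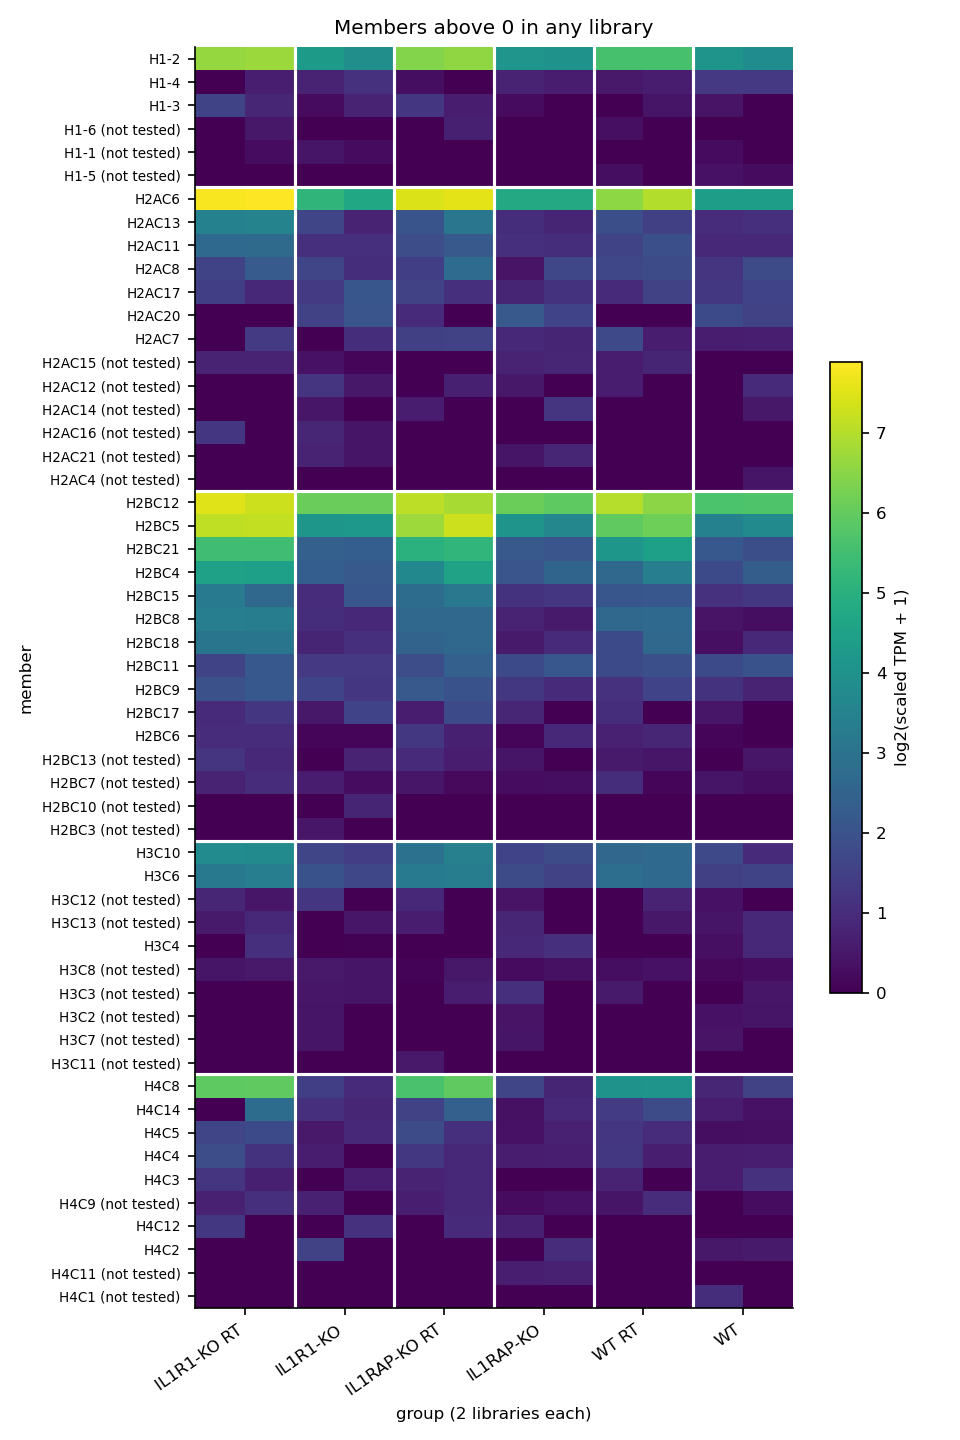
Level of the 54 members above 0 in any library, as log2(scaled TPM + 1) by colour, with 1 column a library and members ordered within each class by their mean level. Bright rows are few: H1-2, H2AC6, H2BC12, H2BC5, H2BC21 and H4C8 stand out, most in the 6 RT columns.

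Among linker histones, which bind the DNA between nucleosomes, H1-2 was the only abundant gene and held 97.9 to 98.8% of the H1 sum in RT libraries and 87.0 to 96.5% in untreated ones. H1-2 was at 97.6 and 103.8 scaled TPM in IL1R1-KO RT against 18.7 and 13.9 in IL1R1-KO libraries, at 84.9 and 95.2 in IL1RAP-KO RT against 16.2 and 15.4 in IL1RAP-KO, and at 47.0 and 46.7 in WT RT against 15.8 and 13.2 in WT. All RT libraries lay above all untreated ones, and both KO RT groups above WT RT. The log2 fold changes were 2.57, 2.44 and 1.63 (SE 0.14 each), with adjusted p of 7.84e-07, 1.12e-06 and 1.5e-05. H1-3 and H1-4 passed the filter near its limit and were called nowhere. H1-4 had 0 and 0.577 scaled TPM in IL1R1-KO RT against 0.705 and 1.2 in IL1R1-KO, 0.222 and 0 in IL1RAP-KO RT against 0.69 and 0.558 in IL1RAP-KO, and 0.454 and 0.535 in WT RT against 1.46 and 1.48 in WT. Its level was below that of the untreated libraries in every genotype, with log2 fold changes of -0.62, -0.55 and -0.73 that did not exceed 2-fold.

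Among H2A genes, H2AC6 held 89.0 to 93.3% of the class sum in RT libraries and 65.4 to 74.0% in untreated ones. It was at 221.1 and 235.1 scaled TPM in IL1R1-KO RT against 35.1 and 24.7 in IL1R1-KO libraries, at 177.5 and 188.8 in IL1RAP-KO RT against 25.9 and 26.3 in IL1RAP-KO, and at 92.2 and 125.9 in WT RT against 20.2 and 20.4 in WT. The groups did not overlap, and the log2 fold changes were 2.91, 2.77 and 2.35 (SE 0.17 each). H2AC13 was at 9.98 and 10.6 in IL1R1-KO RT against 2.15 and 0.698 in IL1R1-KO, at 3.17 and 7.48 in IL1RAP-KO RT against 1.05 and 0.762 in IL1RAP-KO, and at 2.74 and 1.82 in WT RT against 0.992 and 1.13 in WT. It was called higher in both KO lines (log2 fold changes 2.28 and 1.65, SE 0.36 each) and not in WT cells (0.66, adjusted p = 0.165). H2AC11, of which 5.41 and 5.55 scaled TPM were found in IL1R1-KO RT against 1.152 and 1.09 in IL1R1-KO libraries, was called higher in these cells (1.61 ± 0.18, SE). In IL1RAP-KO and WT cells its log2 fold changes were 0.99 and 0.86, just under 2-fold. Reads of H2AC13 are hard to assign, since 81.6% of the 75-base windows of its coding sequence occur in another member.

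H2AC20, which passed the filter through untreated libraries alone, went the other way. It was listed at 0 in both IL1R1-KO RT libraries against 1.86 and 3.24 scaled TPM in IL1R1-KO, at 0.939 and 0 in IL1RAP-KO RT against 3.63 and 1.97 in IL1RAP-KO, and at 0 in both WT RT libraries against 2.40 and 1.95 in WT. It was called lower in all 3 genotypes (adjusted p of 0.00171, 0.00643 and 0.00323), with 1 RT library of 6 above 0. The call in IL1RAP-KO cells was lost without 1 of the untreated libraries (replicate 1, adjusted p = 0.0605) or without RT replicate 2 (log2 fold change -0.94), and where only the compared groups were fitted (adjusted p = 0.0753). H2AC7, H2AC8 and H2AC17, at 0 to 5.75 scaled TPM, were called in no genotype.

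H2B was the most abundant class. H2BC12 was at 178.6 and 154.3 scaled TPM in IL1R1-KO RT against 67.3 and 66.3 in IL1R1-KO, at 134.6 and 114.8 in IL1RAP-KO RT against 68.3 and 60.4 in IL1RAP-KO, and at 128.5 and 89.7 in WT RT against 49.8 and 51.4 in WT. The libraries did not overlap, but the changes were modest: log2 fold changes of 1.30, 0.94 and 1.07 (SE 0.16 each), which passed 2-fold in IL1R1-KO and WT cells. Without WT RT replicate 1 the WT value was 0.82 and was no longer called, as with unscaled TPM (0.81). H2BC5 was at 138.7 and 142.4 in IL1R1-KO RT against 17.1 and 17.3 in IL1R1-KO, at 104.7 and 155.6 in IL1RAP-KO RT against 15.8 and 11.5 in IL1RAP-KO, and at 61.3 and 69.2 in WT RT against 10.1 and 12.3 in WT. H2BC21 was at 43.6 and 42.8 in IL1R1-KO RT against 4.30 and 4.13 in IL1R1-KO, at 31.7 and 35.5 in IL1RAP-KO RT against 3.64 and 3.18 in IL1RAP-KO, and at 17.1 and 21.1 in WT RT against 3.52 and 2.72 in WT. Both genes rose in every genotype, with log2 fold changes of 2.96, 3.15 and 2.44 for H2BC5 (SE 0.19 each) and of 3.08, 2.97 and 2.28 for H2BC21 (SE 0.14 each).

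Low H2B genes rose as well, though H2BC8 would not have passed the filter on its untreated libraries. H2BC8 was at 9.26 and 8.93 scaled TPM in IL1R1-KO RT against 1.05 and 0.874 in IL1R1-KO, at 5.38 and 5.16 in IL1RAP-KO RT against 0.728 and 0.483 in IL1RAP-KO, and at 5.40 and 5.50 in WT RT against 0.346 and 0.235 in WT. H2BC18 was at 7.39 and 7.42 in IL1R1-KO RT against 0.762 and 1.14 in IL1R1-KO, at 4.71 and 5.31 in IL1RAP-KO RT against 0.495 and 0.93 in IL1RAP-KO, and at 2.40 and 5.14 in WT RT against 0.264 and 0.895 in WT. Both were called in all genotypes without overlap of the libraries, H2BC8 with log2 fold changes of 2.37, 1.97 and 2.32. H2BC18 and H2BC21 have 94.4% identical coding sequences, so some of their reads may have been left out or shared. H2BC4 was at 21.6 and 21.04 in IL1R1-KO RT against 4.11 and 3.58 in IL1R1-KO, at 11.9 and 22.3 in IL1RAP-KO RT against 3.27 and 4.86 in IL1RAP-KO, and at 5.17 and 9.45 in WT RT against 2.43 and 3.98 in WT. It was called in both KO lines (2.21 and 1.79, SE 0.32 each), and the WT value (0.96) stayed under 2-fold. H2BC15 was at 8.27 and 5.16 in IL1R1-KO RT against 0.991 and 3.34 in IL1R1-KO, at 5.96 and 7.93 in IL1RAP-KO RT against 1.204 and 1.36 in IL1RAP-KO, and at 3.34 and 3.43 in WT RT against 1.17 and 1.403 in WT. Its call in IL1R1-KO cells (1.36, adjusted p = 0.00699) was lost without IL1R1-KO replicate 1 (0.80), without IL1R1-KO RT replicate 1 (adjusted p = 0.0647) and with only the compared groups fitted (adjusted p = 0.0758). H2BC6, H2BC9, H2BC11 and H2BC17 were called in no genotype, H2BC11 with 2.08 and 3.50 scaled TPM in IL1R1-KO RT against 1.46 and 1.45 in IL1R1-KO, 2.61 and 4.37 in IL1RAP-KO RT against 2.44 and 3.39 in IL1RAP-KO, and 2.38 and 2.76 in WT RT against 2.40 and 2.92 in WT.

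Of the divergent pairs with both genes tested, H2BC4 and H2AC6 rose together in the KO lines. H2BC21 and H2AC20, whose starts are 235 bases apart, were called in opposite directions in all 3 genotypes. H2BC8 was called higher and its partner H2AC8 was not (log2 fold changes 0.61, 1.05 and 0.23, adjusted p of 0.343, 0.108 and 0.747). H2AC11 was called in IL1R1-KO cells and its partner H2BC11 was not (0.60, adjusted p = 0.0694). H2AC17 and H2BC17 were called nowhere. No test of the difference between the genes of a pair was made.

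**Figure D3:**
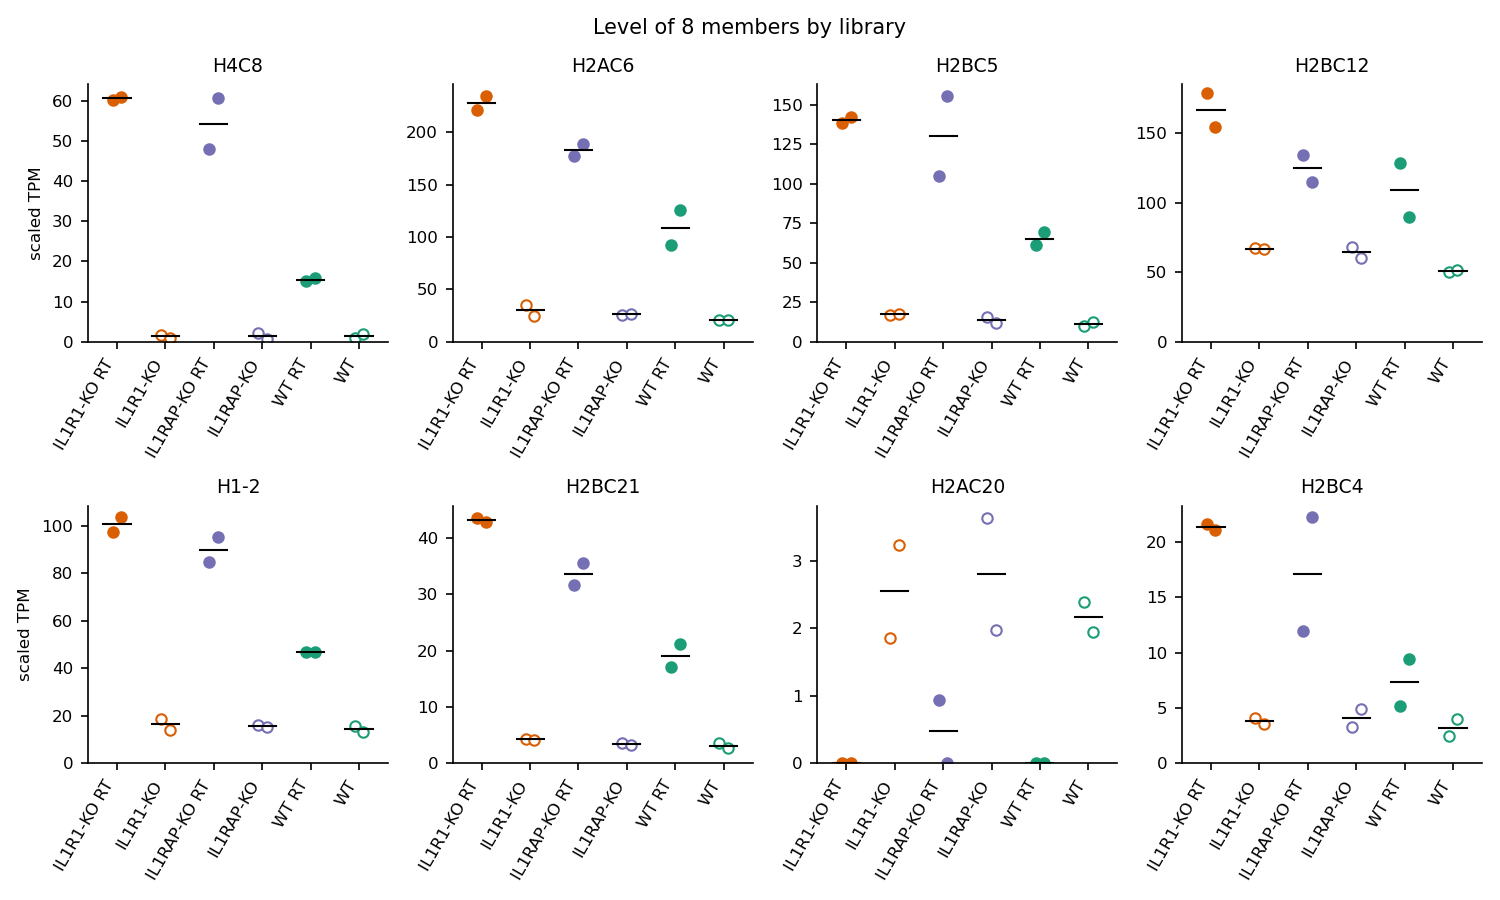
Scaled TPM of 8 members in each library (filled, RT; open, untreated; bars, means of 2 libraries; axes start at 0 and differ between panels). H2AC20 is the only one of the 8 with its untreated libraries on top, and its head-to-head partner H2BC21 reaches 43.6 and 42.8 in IL1R1-KO RT libraries.

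Core histone H3 genes were low. H3C10 was at 12.999 and 12.4 scaled TPM in IL1R1-KO RT against 2.12 and 1.70 in IL1R1-KO, at 6.84 and 9.80 in IL1RAP-KO RT against 1.99 and 2.58 in IL1RAP-KO, and at 5.12 and 5.46 in WT RT against 2.32 and 0.923 in WT. H3C6 was at 8.11 and 9.37 in IL1R1-KO RT against 2.93 and 2.18 in IL1R1-KO, at 8.24 and 9.21 in IL1RAP-KO RT against 2.45 and 1.92 in IL1RAP-KO, and at 6.21 and 5.41 in WT RT against 1.80 and 2.05 in WT. Both rose in every genotype, with log2 fold changes of 2.24, 1.49 and 1.31 for H3C10 (SE 0.25 each) and of 1.46, 1.61 and 1.22 for H3C6 (SE 0.17 each). The WT value of H3C10 was 0.92 and not called without WT replicate 2. H3C4 was called lower in IL1RAP-KO cells, with 0 in both RT libraries against 0.896 and 1.14 in the untreated ones (adjusted p = 0.0334). That call was lost without any 1 of these 4 libraries (adjusted p of 0.0838 to 0.137), with scaling to nuclear protein-coding genes alone (nuclear scaling, 0.054) and with no filter on low values (0.0551), and H3C4 was at 0 and 1.14 in IL1R1-KO RT against 0 and 0.028 in IL1R1-KO libraries.

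The largest change of any member was that of H4C8. This H4 gene was at 60.2 and 61.1 scaled TPM in IL1R1-KO RT against 1.74 and 0.94 in IL1R1-KO, at 47.9 and 60.8 in IL1RAP-KO RT against 2.15 and 0.772 in IL1RAP-KO, and at 15.05 and 15.9 in WT RT against 0.783 and 1.86 in WT. The untreated groups could not be ranked, the RT groups lay far above them, and both KO RT groups lay above WT RT. The log2 fold changes were 4.74, 4.54 and 2.86 (SE 0.30 each), with adjusted p of 1.94e-06, 2.6e-06 and 5.51e-05. H4C8 held 73.4 to 88.1% of the H4 sum in RT libraries and 16 to 46.1% in untreated ones. H4C4 was at 2.61 and 1.22 in IL1R1-KO RT against 0.562 and 0 in IL1R1-KO, at 1.41 and 0.82 in IL1RAP-KO RT against 0.551 and 0.595 in IL1RAP-KO, and at 1.43 and 0.577 in WT RT against 0.519 and 0.593 in WT. It was called in IL1R1-KO cells (1.18, adjusted p = 0.0131), a call lost without IL1R1-KO replicate 2 (0.86), without IL1R1-KO RT replicate 1 (0.83) and with only the compared groups fitted (adjusted p = 0.0591). H4C4 passed the filter through RT libraries alone. H4C2, H4C3, H4C5, H4C12 and H4C14 were called nowhere. Of these, H4C5 had log2 fold changes of 0.99, 0.87 and 0.83, under 2-fold. The genes H4C12 and H4C14 each have a copy with the same coding sequence (H4C11 and H4C15). Reads that lie wholly within it cannot be told apart, and how they were counted is not given.

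**Figure D4:**
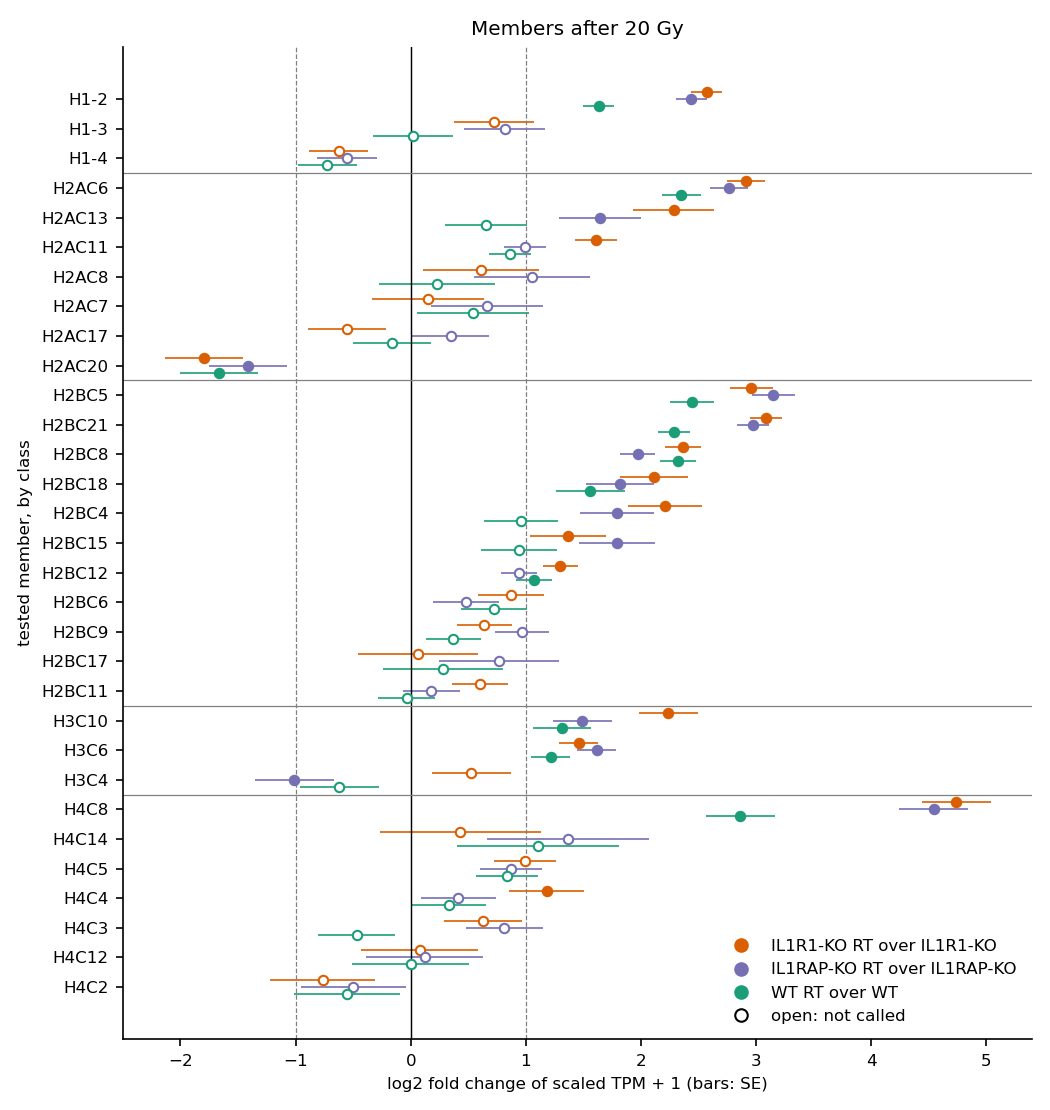
Log2 fold change of each of the 31 tested members after RT in the 3 genotypes, on the scale of log2(scaled TPM + 1), with SE bars, by class. Filled points were called, dashed lines mark 2-fold. H4C8 lies furthest to the right, at 4.74 in IL1R1-KO cells and at 4.54 in IL1RAP-KO cells, while H2AC20 furthest to the left.

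The members that rose were next described by the 3′ end of their gene models, which the choice of members did not use. In GENCODE v44, the annotation of 14 of the 64 members reaches more than 100 bases past the stem-loop (430 to 37155 bases, introns included), and that of the other 50 ends at most 18 bases past it. Of the 12 tested members with such a long model, 9 were called higher after RT in at least 1 genotype and 7 in all 3. Of the 19 tested members whose model ends at the stem-loop, 6 were called higher in at least 1 genotype (H1-2, H2AC11, H2AC13, H2BC8, H2BC12 and H4C4) and 2 in all 3. Over all genes tested, 8.16%, 8.21% and 7.05% were called higher in IL1R1-KO, IL1RAP-KO and WT cells. The share of all genes called in at least 1 genotype or in all 3 was not counted. Median log2 fold changes were 2.16, 1.79 and 1.26 for the 12 and 0.63, 0.81 and 0.28 for the 19. The sets also differ in level. Of the 19 only H1-2 and H2BC12 were abundant, while the 12 include H2AC6, H2BC5, H2BC21 and H4C8 beside low genes such as H2BC6. The log2 scale used understates changes of low genes, so gene model and level cannot be told apart here. The threshold of 100 bases was set after the values were seen. H4C8 has 3 annotated transcripts with up to 3 exons, and H2BC21 a single exon that runs 1729 bases past the hairpin. Reads over the long and the short form are added up in 1 value a gene, and which form they came from was not tested.

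Described as a list, 6 members are known to give polyadenylated mRNA in cells that have stopped dividing (H1-2, H2AC6, H2BC4, H2BC5, H2BC12 and H2BC21). They held 81.3 to 84.8% of the summed level in RT libraries and 77.7 to 81.1% in untreated ones. In IL1R1-KO, IL1RAP-KO and WT cells 6, 5 and 5 of them were called higher, against 8.16%, 8.21% and 7.05% of all genes tested. Of the other 25 tested members, 9, 7 and 5 were called higher and 1, 2 and 1 lower, with medians of 0.64, 0.82 and 0.37. The sum over the other 60 members was 151.4 ± 4.5, 126.4 ± 20.6 and 63.7 ± 1.3 scaled TPM in the RT groups of the same order, against 35.3 ± 0.4, 30.6 ± 0.5 and 27.9 ± 2.7 in the untreated groups (SD, n = 2 each). The libraries were made from total RNA after depletion of ribosomal RNA. Of the structural RNAs without a poly(A) tail that were looked up, 3 were above 0 in every library. As deposited, RN7SL1 ranged from 124.17 to 1209 TPM, RN7SK from 9.07 to 87.3 and RPPH1 from 0.97 to 6.97. Only untreated IL1R1-KO replicate 2 reached the top RN7SL1 value, and the highest elsewhere was 228.76. RMRP had 2 entries, which ranged from 0 to 26.96 and from 0 to 36.03 TPM. Both entries were 0 in IL1RAP-KO RT replicate 2. How these levels bear on those of tailless histone mRNA was not tested.

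Without RT, no member was called in IL1R1-KO or IL1RAP-KO against WT cells (limma), where 0.137% and 0.0915% of all genes were called. At an unadjusted p under 0.05 there were 5 of 31 members higher and 1 lower in IL1R1-KO cells, against 2.42% of all genes higher and 2.84% lower. The same count in IL1RAP-KO cells was 0 higher and 2 lower, against 1.86% and 2.16% of all genes. The summed level was 182.2 and 164.9 scaled TPM in IL1R1-KO and 164.0 and 151.8 in IL1RAP-KO, against 127.9 and 133.7 in WT libraries, above WT without overlap and with ratios of the means of 1.33 and 1.21.

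After RT, 8 members were called higher and none lower in IL1R1-KO RT against WT RT cells, where 3.06% of all genes were called. They were H1-2, H2AC6, H2AC13, H2BC4, H2BC5, H2BC21, H3C10 and H4C8. H4C8 had the largest difference (log2 1.91 ± 0.30, SE, adjusted p = 0.00338), with 60.2 and 61.1 scaled TPM in IL1R1-KO RT against 15.05 and 15.9 in WT RT, and H2BC21 the smallest adjusted p (1.145 ± 0.14, adjusted p = 0.000901). The others differed by 1.07 to 1.79 on the log2 scale. None of the 8 overlapped between the groups, which adds little, since they were called on these same libraries. Of all 15303 genes tested, 4485 lay above and 4455 below WT RT without overlap. In IL1RAP-KO RT against WT RT, 2 members were called higher (H4C8, 1.74, adjusted p = 0.00692; H2BC4, 1.11, adjusted p = 0.0473) and none lower, where 2.89% of all genes were called. H1-2 (0.93, adjusted p = 0.00346), H2AC6 (0.76), H2BC5 (0.96) and H2BC21 (0.79) passed the p threshold there without exceeding 2-fold.

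Several of these calls rested on single libraries. Without WT RT replicate 1, the lower of the WT RT libraries for these genes, differences in IL1R1-KO RT fell below the thresholds for H2AC6 (0.85), H2BC4 (1.09, adjusted p = 0.142), H2BC5 (adjusted p = 0.0574) and H3C10 (adjusted p = 0.118), and 4 of 8 calls were left. H3C10 was also lost without any of the 3 other libraries (adjusted p of 0.0691 to 0.114), H2BC4 without either IL1R1-KO RT library (0.101 and 0.0792), and H2AC13 without WT RT replicate 2 or either IL1R1-KO RT library (0.0671, 0.0658 and 0.0642). Under other settings, H2AC6 (0.054) and H2BC4 (0.0705) were lost with only the compared groups fitted, H2BC4 (0.0519) and H3C10 (0.054) with no filter on low values, and H3C10 (0.0551) with a pseudocount of 0.1. In IL1RAP-KO RT, H4C8 was lost without WT RT replicate 1 (adjusted p = 0.0585), and H2BC4 was lost in 10 of the 12 fits that left out 1 library (log2 0.69 to 1.11, adjusted p of 0.0569 to 0.283).

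Whether the response to RT itself differed between genotypes was tested with the interaction. For IL1R1-KO against WT cells, H4C8 was the only member called (1.88 ± 0.42, SE, adjusted p = 0.0492), where 1.44% of all genes were called. That call was lost without any 1 of the 8 libraries of these genotypes (adjusted p of 0.0595 to 0.17, log2 1.53 to 2.22). Members called after RT in only 1 or 2 genotypes (H2AC11, H2AC13, H2BC4, H2BC12, H2BC15, H3C4 and H4C4) were not called by either interaction and so are not shown to differ between genotypes. H1-2 passed the p threshold at 0.94 ± 0.19 (adjusted p = 0.0365). For IL1RAP-KO against WT cells no member was called (limma), where 0.817% of all genes were called, and at an unadjusted p under 0.05 there were 5 of 31 members above 0 and none below, against 7.32% of all genes above and 10.1% below. H4C8 had 1.68 there (adjusted p = 0.1).

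The genes that work with histones in S phase did not follow the members. In the list of DNA replication genes (helicase, polymerase, clamp loader and nucleotide synthesis genes), 36, 33 and 32 of 44 were called lower in IL1R1-KO, IL1RAP-KO and WT cells and none higher, with medians of -1.74, -1.58 and -1.45. Over all genes tested, 8.16%, 9.18% and 6.16% were called lower in this order of genotypes. TK1, which salvages thymidine, was at 0.282 and 0.218 scaled TPM in IL1R1-KO RT against 14.4 and 18.8 in IL1R1-KO, at 0.211 and 0.377 in IL1RAP-KO RT against 15.3 and 13.9 in IL1RAP-KO, and at 0.593 and 0.738 in WT RT against 18.8 and 17.1 in WT. MCM6, a subunit of the replicative helicase, had log2 fold changes of -2.32, -2.27 and -2.16 in this order of genotypes. RRM1, needed to make deoxynucleotides, was called lower in all 3 (-1.78, -1.34 and -1.65), though with nuclear scaling not in IL1RAP-KO cells (-0.95). PCNA, the sliding clamp, had -0.84, -0.86 and -0.76 and MCM4 -0.82, -0.90 and -0.91, which stayed under 2-fold.

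Of 12 genes for histone transcription and entry into S phase, 6, 7 and 5 were called lower and none higher. The share of all genes tested that was called lower was 8.16%, 9.18% and 6.16%. MYBL2, a transcription factor of cycling cells, was at 0.227 and 0.218 scaled TPM in IL1R1-KO RT against 17.3 and 21.1 in IL1R1-KO, at 0.053 and 0.121 in IL1RAP-KO RT against 18.1 and 17.1 in IL1RAP-KO, and at 0.465 and 0.759 in WT RT against 22.1 and 21.9 in WT. CCNA2, the cyclin of S phase, had log2 fold changes of -4.01, -3.88 and -3.85, and CDC25A, a phosphatase that activates CDK2, of -1.81, -1.70 and -1.74. CCNE2, an E-type cyclin, was called lower in both KO lines (-1.80 and -1.06; WT, -0.95), in IL1RAP-KO cells not without RT replicate 2 (-0.98) or with nuclear scaling (-0.80). HINFP, which binds H4 promoters, had log2 fold changes of 0.21, -0.04 and -0.21 and was not called. NPAT, the coactivator at histone genes, had 0.14, 0.24 and 0.37, and YY1 -0.37, -0.09 and -0.39.

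Of 12 genes for processing of the 3′ end none was called in any genotype (limma), with 6, 8 and 6 lower and 0, 1 and 0 higher at an unadjusted p under 0.05, where 28.6%, 29.5% and 26.8% of all genes were lower and 26.2%, 26.8% and 24% higher. SLBP was at 34.2 and 38.9 scaled TPM in IL1R1-KO RT against 53.6 and 50.8 in IL1R1-KO, at 37.9 and 40.6 in IL1RAP-KO RT against 52.3 and 53.4 in IL1RAP-KO, and at 34.7 and 35.05 in WT RT against 52.5 and 53.8 in WT, lower without overlap and by less than 2-fold (-0.51, -0.42 and -0.59). Of all 15303 genes, 5755, 5606 and 5747 were likewise lower without overlap. CPSF3, the endonuclease that cuts after the hairpin, had -0.61, -0.67 and -0.73, and NCBP2, of the cap-binding complex, -0.22, -0.17 and -0.17. Of 8 genes for decay of histone mRNA, ERI1, the exonuclease that binds the stem-loop, was called lower in every genotype (-1.30, -1.06 and -1.05), without WT replicate 1 not in WT cells (-0.96). With nuclear scaling it was under 2-fold in all 3 (-0.89, -0.70 and -0.94). In IL1RAP-KO cells DIS3L2, an exonuclease for tailed RNA, was called lower (-1.05) and TUT7, which adds uridine, higher (1.02), both no longer without IL1RAP-KO replicate 2 (-0.96 and 1.00) or RT replicate 2 (-0.92 and 0.99). DIS3L2 was also not called with nuclear scaling (-0.69), nor TUT7 with unscaled TPM (0.68). TUT4, a relative of TUT7, had 0.02, 0.43 and 0.51, and LSM1, of the decay complex, 0.21, 0.21 and -0.01.

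Of 12 histone chaperones and assembly genes, 6, 6 and 5 were called lower and none higher, against 8.16%, 9.18% and 6.16% of all genes lower. NASP, which holds soluble H3 and H4, was at 35.2 and 33.3 scaled TPM in IL1R1-KO RT against 129.4 and 129.2 in IL1R1-KO, at 34.9 and 48.6 in IL1RAP-KO RT against 124.3 and 138.8 in IL1RAP-KO, and at 42.9 and 44.6 in WT RT against 127.7 and 145.6 in WT. ASF1B and CHAF1B, chaperones that act at the replication fork, had log2 fold changes of -2.67 and -1.96 in IL1R1-KO, -2.72 and -2.28 in IL1RAP-KO and -2.37 and -2.30 in WT cells. IPO4, which imports H3 and H4, had -1.94, -1.91 and -1.10, the last not called without WT RT replicate 2 (-0.97) or with nuclear scaling (-0.98). RBBP4 (-0.58, -0.54 and -0.52) and RBBP7 (-0.87, -0.66 and -0.71) stayed under 2-fold.

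Of 11 replacement variants, 4, 5 and 3 were called lower, against 8.16%, 9.18% and 6.16% of all genes tested. H2AZ1, a replacement H2A, was at 159.6 and 150.9 in IL1R1-KO RT against 543.5 and 576.0 in IL1R1-KO, at 149.7 and 116.8 in IL1RAP-KO RT against 513.8 and 552.1 in IL1RAP-KO, and at 124.1 and 140.2 in WT RT against 566.8 and 515.1 in WT. CENPA, the H3 of centromeres, had log2 fold changes of -2.94, -3.01 and -2.95. MACROH2A1 was called lower in both KO lines (-1.14 and -1.25; WT, -0.86), and in neither with nuclear scaling (-0.68 and -0.85). The replacement H3 genes H3-3A (-0.91, -0.75 and -0.62) and H3-3B (-0.69, -0.86 and -0.70) were lower by less than 2-fold. Among 4 histone genes of similar structure outside the main clusters, 3 were tested. H2BU1 and H4-16 were called higher in IL1R1-KO cells (1.10 and 1.49), and H2AW was called nowhere.

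**Figure D5:**
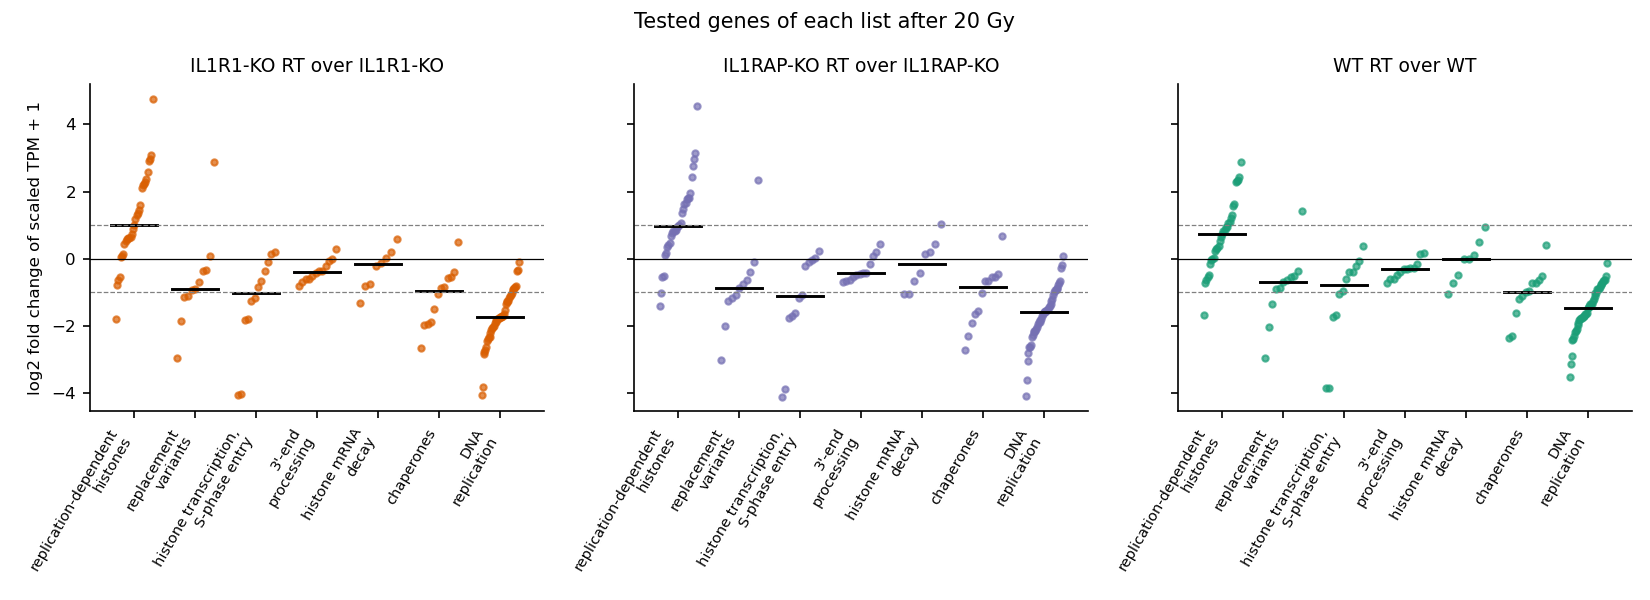
Log2 fold change after RT of each tested gene of 7 lists (points, sorted within a list; bars, medians; dashed lines, 2-fold), by genotype. The medians of the replication-dependent histones lie above 0 (0.99, 0.97 and 0.72) and those of DNA replication genes below it (-1.74, -1.58 and -1.45).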

How the data were processed

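Total RNA of MCF10A cells was depleted of ribosomal RNA and sequenced from stranded libraries, 2 for each of 6 groups. The submitters' processing notes name cutadapt 1.15, STAR 2.5.3a, HTSeq, DESeq2 and the build GRCh38. The authors deposited TPM for 60675 genes in steps of 0.01. Strand setting, treatment of reads that match several places and gene lengths are not given in the sources used here, which bears on histone genes with near-identical copies. Read counts were not used here, so depth is unknown and intervals for counting error could not be set.

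TPM were divided by factors from trimmed means of log ratios (30% of log ratios and 5% of mean levels trimmed at each end), which ranged from 0.744 to 1.10. Genes at 1 TPM or more in at least 2 libraries were kept and log2(scaled TPM + 1) was fitted in limma 3.58.1 (R 4.3.3) with 6 group means and a trend of the variance on the mean level. The residual degrees of freedom were 6 and those of the prior 3.73. The interaction is the RT change of a KO line minus that of WT cells. The fit was tested on simulated data. Alternatives were unscaled TPM, median-of-ratios factors, scaling to nuclear protein-coding genes, a pseudocount of 0.1, no filter, only the compared groups, no variance trend, a replicate block and leaving out each library. Values are given for members called in any comparison and the 5 most abundant ones, and for up to 4 called and 2 other genes of each list. H1-4, H2BC11, H4C5, SLBP, NPAT and the genes outside the main clusters were named besides, after their values were seen. Values of some list genes are not reported here. Members and lists were chosen with earlier results of these data known. Positions and gene models are from GENCODE v44, promoters from RefSeq.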

Additional observations from a re-analysis of the deposited data

Results flagged for a closer look

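By the interaction, the response to RT differed between genotypes at an adjusted p under 0.05 (limma, Benjamini-Hochberg over all genes tested) for 2 members of the replication-dependent histones, both in IL1R1-KO against WT cells. For H4C8 the change in IL1R1-KO minus that in WT cells was 1.876 (log2, adjusted p = 0.0492), and for H1-2 it was 0.937 (adjusted p = 0.0365). H4C8 was past 2-fold, and its call was lost without any 1 of the 8 libraries of these genotypes. Of the genes named from the other lists, IPO4 fell further in IL1R1-KO cells, with a difference of -0.843 (adjusted p = 0.0438).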

How the results depend on the processing

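Of 52 calls of a member in a comparison, 38 held under 8 other settings and with each of the 12 libraries left out, and none reversed. Over the other settings 395 of 416 values kept their call and 21 did not, and with a library left out 581 of 624 did and 43 did not. Leaving out 1 library gave 14 to 16 members higher and 1 to 2 lower in IL1R1-KO RT, 12 to 15 and 0 to 2 in IL1RAP-KO RT, 10 to 11 and 1 in WT RT, 4 to 8 called in IL1R1-KO RT and 0 to 5 in IL1RAP-KO RT against WT RT, 0 to 1 for either interaction, and 0 for both untreated comparisons. Members lower in IL1RAP-KO RT numbered 1 with scaling to nuclear protein-coding genes, with no filter and with the compared groups alone. In IL1R1-KO RT against WT RT there were 10 calls with unscaled TPM and 12 with nuclear scaling. In IL1RAP-KO RT against WT RT there was 1 call with unscaled TPM, a pseudocount of 0.1, no filter or no variance trend, 8 with nuclear scaling and 0 with the compared groups alone. For the IL1R1-KO interaction there were 2 with unscaled TPM, 5 with nuclear scaling and 0 with a pseudocount of 0.1, no filter, no variance trend or the replicate block. For that of IL1RAP-KO there were 2 with nuclear scaling and 1 with no filter. For genes of other lists and both receptors, 1034 of 1060 values kept their call and 26 did not. The cause was not tested. The median of all genes after RT, at 0.01, 0.00 and 0.00 in IL1R1-KO, IL1RAP-KO and WT cells, was 0.03, -0.28 and -0.21 as deposited and 0.40, 0.33 and 0.10 with nuclear scaling, which called 2736 genes higher and 566 lower, 2404 and 685, and 1220 and 722, against 1248 and 1248, 1256 and 1405, and 1079 and 942. Relative to that median, the members' median was 0.98, 0.96 and 0.72, as deposited 1.00, 1.00 and 0.87, and with nuclear scaling 0.87, 0.92 and 0.61. The summed level as deposited was 918.31 TPM in IL1R1-KO RT, with 591.5 in IL1RAP-KO RT and 377.62 in WT RT, against 184.28 in IL1R1-KO, 169.57 in IL1RAP-KO and 141.2 in WT libraries. Replicates that share a number were not known to share a culture, and their deviations correlated by -0.061 to 0.095 over 15 pairs of groups. The replicate block left the members at 15 higher and 1 lower for IL1R1-KO RT, 12 and 2 for IL1RAP-KO RT and 10 and 1 in WT RT, and ended the interaction call of H4C8 (adjusted p = 0.0664). Most members lie near 1 TPM or below, where a few reads decide a value and depth is unknown.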

Other observations

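A pair of transcribed H2B pseudogenes, looked up after the members' values were seen, were measured as well. H2BC19P was at 47.3 and 49.5 scaled TPM in IL1R1-KO RT against 6.00 and 4.96 in IL1R1-KO, at 31.2 and 45.6 in IL1RAP-KO RT against 4.48 and 5.23 in IL1RAP-KO, and at 10.8 and 18.7 in WT RT against 4.05 and 4.75 in WT libraries. H2BC20P was at 38.1 and 38.01 in IL1R1-KO RT against 6.89 and 5.49 in IL1R1-KO, at 26.4 and 37.6 in IL1RAP-KO RT against 5.87 and 5.91 in IL1RAP-KO, and at 13.3 and 18.3 in WT RT against 5.83 and 5.78 in WT libraries. RT libraries lay above untreated ones without overlap for both, and IL1R1-KO RT and IL1RAP-KO RT above WT RT. How far reads of coding H2B genes were counted for them was not tested.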
